A study of Mus musculus with 48 samples.

Results

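The 10 genes described here encode the contractile apparatus of smooth muscle: *Acta2*, *Actg2*, *Myh11*, *Myl9*, *Tagln*, *Cnn1*, *Smtn*, *Lmod1*, *Des* and *Synm*. They were chosen by name, and every array probe whose accession maps to one of them was kept, which gave 14 probes of 41174 that are not controls and 10 of 18434 named genes. *Acta2* has 3 probes, *Tagln* and *Synm* have a pair each, and the others have 1. Where 1 probe stands for a gene, it is the one with the highest mean Cy3 signal in colon. RNA from liver and colon of C57/BL6 offspring was labelled with Cy3 and hybridised on 2-colour arrays against 1 common reference RNA in Cy5. All mice received a high-fat diet in which selenium and folate were either supplemented (H) or marginally deficient (L). The first letter of a group is the diet of the dam in gestation and lactation, and the second that of the pup from weaning to 12 weeks of age. The groups were therefore HH, HL, LH and LL, with 6 mice each in colon and in liver, except that HH liver held 5 mice because 2 of its arrays carry the same animal. The labels do not give litters. They describe the reference as RNA of a whole pregnant mouse with foetus, whereas the methods describe pooled intestine and liver RNA, so a ratio to it has no absolute meaning.

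Smooth muscle shortens when myosin thick filaments pull on actin thin filaments, and it is switched on by phosphorylation of the myosin regulatory light chain after calcium enters the cell. Thin filament proteins such as calponin and transgelin bind the actin, and desmin and synemin form the intermediate filaments that tie the contractile units to dense bodies and to the membrane. In the colon these proteins are carried by the circular and longitudinal layers of the muscularis externa, by the thin muscularis mucosae and by vessel walls. In the liver they are largely restricted to vessel walls and to stellate and portal cells. Serum response factor, bound to the CArG box of their promoters together with myocardin family coactivators, is the best known regulator of the set. Because whole colon was extracted, the level of a muscle gene per unit of RNA reflects both how much of the sample was muscle and how much each muscle cell made, and in bulk samples fewer cells of a type and less RNA per cell cannot be told apart.

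Tissue labels were checked first against marker genes. All 6 hepatocyte markers, among them *Alb* and *Apoa1*, were called lower in colon than in liver, and 19 of 20 epithelial markers were called higher in colon, the exception being *Aqp8*. Of probes not used as controls, 55.1 to 66.0% were well above background in liver and 66.8 to 73.7% in colon. Each slide held 1 mouse of each diet, with colon on slides 7 to 12 and liver on slides 1 to 6. Tissue therefore cannot be told apart from slide or from anything else that differed between these slides. The mice are described as male, but *Xist* was clearly above the level of the other mice in 6 colon and 2 liver samples, and without them the counts of called member probes given below were the same. The LL mouse of slide 10 stood apart in colon: its mean over 5 lymphoid markers was 2.04 on the log2 scale against -0.55 to 0.16 in the other 23 mice. Correlations between the members and with the marker lists, and counts of colon diet differences, are therefore given with and without it. Deviations of a mouse from the others of its slide, and most single genes inside the lists, are given with it only.

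None of the smooth muscle genes differed between diets beyond the thresholds. In colon, 0 of the 84 differences between diets (14 probes in 6 pairs of diets) were called at a fold change above 1.5 and a false discovery rate (FDR) under 0.05, by limma with slide as a block and Benjamini-Hochberg adjustment over all probes. Over the array the share called was 0% in each of the 6 pairs. The largest of the 84 differences was 0.20 on the log2 scale, a 1.15-fold difference, and the lowest adjusted p was 0.554. No 95% confidence interval reached beyond a 1.30-fold difference, which leaves a 1.5-fold difference outside the interval of each of the 84. At an unadjusted p under 0.05, 3 of the 84 differences passed. They were 1 each in LH minus HH, LL minus LH and LH minus HL, where 8.08, 7.2 and 7.93% of all probes passed that limit. In HL minus HH, LL minus HH and LL minus HL, 3.25, 3.41 and 2.4% of all probes passed it and 0 of the 14 did. The pairs share mice, since 4 groups make up all 6 of them. In no pair did the mice of one diet lie wholly above those of the other for any member probe, where 0.175% of all probes were separated in this way between LH and HH, 0.0715% between HL and HH, 0.0419% between LL and HH, 0.0591% between LL and HL, 0.131% between LL and LH and 0.104% between LH and HL. A difference ran the same way on all 6 slides in 3 of the 84, as in 3.32% of all probes over the 6 pairs.

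**Figure D1:**
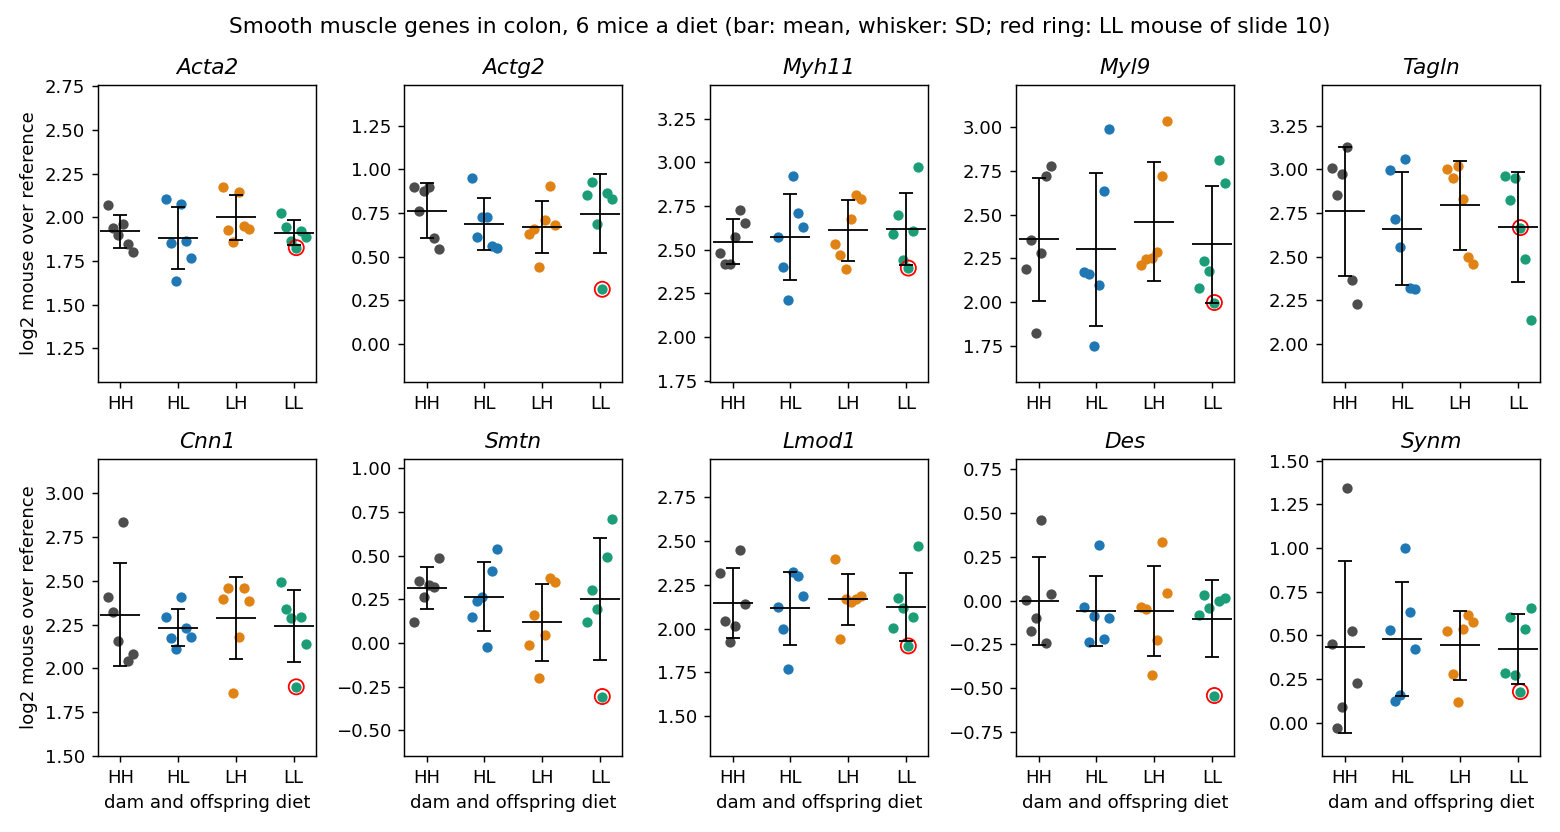
Log2 mouse over reference of the 10 genes in each colon mouse (y axis, a span of 1.7 log2 units in every panel) by dam and offspring diet (x axis), 1 probe per gene, with the mean and SD of 6 mice. The diets overlap for all 10 genes, and the ringed LL mouse of slide 10 is the lowest LL mouse for all of them except *Tagln*.

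The smooth muscle actins differed little among the 4 diets. *Acta2*, the actin of vascular and visceral smooth muscle, is measured by 10 spots per array on its brightest probe (A_52_P420504). Values are log2 mouse over reference, which is opposite in sign to the log2 ratios the authors deposited. In HH colon the lowest, median and highest mouse were at 1.80, 1.92 and 2.07, in HL at 1.64, 1.86 and 2.10, in LH at 1.86, 1.94 and 2.18, and in LL at 1.83, 1.91 and 2.03. The ranges of the diets overlap widely, and all 24 mice lie within 1.45-fold. LH mice were above the HL mouse of their slide on 6 of 6 slides, by 0.07 to 0.22, which gave a mean difference of 0.12 ± 0.05 (SE) with an adjusted p of 0.609 by limma. The other *Acta2* probes did not follow it, since A_51_P450957 gave -0.13 ± 0.08 for LH minus HL and A_52_P210078 gave 0.04 ± 0.10. *Actg2*, the enteric actin that is typical of visceral muscle, ran from 0.31 to 0.95 over the 24 mice. Its means were 0.76 ± 0.16 in HH, 0.69 ± 0.15 in HL, 0.67 ± 0.15 in LH and 0.75 ± 0.23 in LL (SD, n = 6). The lowest *Actg2* mouse of all was the LL mouse of slide 10.

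Of the thick filament genes, *Myh11* encodes the smooth muscle myosin heavy chain and is the most specific marker in the list. Its lowest, median and highest values were 2.42, 2.53 and 2.73 in HH, 2.21, 2.60 and 2.92 in HL, 2.39, 2.60 and 2.81 in LH, and 2.40, 2.60 and 2.97 in LL. The 4 medians thus lie between 2.53 and 2.60, whereas the lowest and highest HL mice were 1.64-fold apart. LH minus HH was 0.06 ± 0.08 and LL minus HH 0.07 ± 0.08 (SE), the latter 0.15 ± 0.07 without the LL mouse of slide 10 (adjusted p = 1.00 by limma). *Myl9*, the regulatory light chain whose phosphorylation starts contraction, had means of 2.36 ± 0.35 in HH, 2.30 ± 0.44 in HL, 2.46 ± 0.34 in LH and 2.33 ± 0.33 in LL (SD, n = 6). Most of this spread lay between slides, as described further on. Within slides LH was above HL on 6 of 6 slides, by 0.04 to 0.50, with a mean difference of 0.16 ± 0.08 (SE) and an adjusted p of 0.632 by limma.

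Promoter sequence was available for 7 of the 10 genes (RefSeq, GRCm38.p6, from 250 bases before to 50 after the start). A strict CArG box was searched on both strands, on which this palindromic pattern reads alike. It was found in *Myl9* only, at 161 to 152 bases before the start, and 1.63% of all 32851 promoters in the table hold it. Among 52 genes of the wider contractile pathway with a promoter, 7 hold it. The 250 bases before the *Myl9* start (chr2:156775214-156775463, plus strand) are shown because this is the member with a match, with the CArG box in capitals. The start is that of the promoter table, and the annotated span of the gene begins upstream of it, at position 156775408 within the window:
Myl9: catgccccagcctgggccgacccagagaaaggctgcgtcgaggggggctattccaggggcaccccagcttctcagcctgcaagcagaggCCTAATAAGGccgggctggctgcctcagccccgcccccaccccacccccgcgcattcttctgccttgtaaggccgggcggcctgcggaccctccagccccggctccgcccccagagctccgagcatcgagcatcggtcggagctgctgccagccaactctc
The missing match in *Acta2*, *Cnn1*, *Smtn*, *Lmod1*, *Des* and *Synm* says only that these letters are not in this window.

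The 4 actin-binding genes had no called difference either. *Tagln* encodes transgelin (SM22), a calponin family protein that appears early in smooth muscle differentiation. Its brighter probe had means of 2.76 ± 0.37 in HH, 2.66 ± 0.32 in HL, 2.79 ± 0.25 in LH and 2.67 ± 0.32 in LL (SD, n = 6). LL was below LH on 6 of 6 slides, by 0.01 to 0.32, and the mean difference was -0.12 ± 0.08 (SE, adjusted p = 0.766 by limma). Without the LL mouse of slide 10 it was -0.07 ± 0.08. The second *Tagln* probe gave 0.04 ± 0.10, with LL above LH on 3 of 6 slides. *Cnn1*, calponin, which binds actin and slows the actomyosin ATPase, ran from 1.86 to 2.83 over the 24 mice, and its 4 diet means spanned 2.23 to 2.31. *Lmod1*, leiomodin, which nucleates actin filaments in smooth muscle, ran from 1.77 to 2.47, with diet means from 2.12 to 2.17. *Smtn*, smoothelin, a protein of fully contractile cells, gave the largest difference among the 10 chosen probes. Its lowest, median and highest values were 0.12, 0.33 and 0.49 in HH, -0.02, 0.25 and 0.54 in HL, -0.20, 0.10 and 0.37 in LH, and -0.31, 0.25 and 0.71 in LL. LH lay below HH by -0.19 ± 0.08 (SE, adjusted p = 0.554), with the ranges overlapping.

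The intermediate filament genes had the largest spread among the 10 genes once diet and slide were removed. *Des*, desmin, is measured by 10 spots per array, and its values were -0.24, -0.05 and 0.46 (lowest, median, highest) in HH, -0.24, -0.09 and 0.32 in HL, -0.43, -0.04 and 0.33 in LH, and -0.54, -0.02 and 0.03 in LL. The highest HH mouse and the highest HL mouse were both on slide 10, as was the lowest LL mouse. *Synm*, synemin, which copolymerises with desmin, ran from -0.03 to 1.35, a 2.59-fold span that lies wholly within the HH group. After removing diet and slide, the residual SD was 0.28 for *Synm* and 0.26 for *Des*, against 0.08 for the brightest *Acta2* probe and a median of 0.13 over the 27390 probes well above background in colon. *Synm* and *Des* exceeded 95.3 and 94.2% of those probes, and *Acta2* 7.64%.

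The dam contrast sets LH and LL against HH and HL, the offspring contrast sets HL and LL against HH and LH, and the interaction asks whether one depends on the other. In colon 0 of 14 member probes were called in each of the 3 contrasts, where 0% of all probes were called, and 0 of 14 had an unadjusted p under 0.05, as 5.44, 5.41 and 4.77% of all probes had in the dam, offspring and interaction contrasts. Without the LL mouse of slide 10, 0 of 14 were called, and 1, 0 and 3 of 14 had an unadjusted p under 0.05 in these contrasts, where 5.72, 5.76 and 4.65% of all probes had. The 3 in the interaction were *Acta2* (A_52_P210078, 0.28 ± 0.12), *Actg2* (0.25 ± 0.11) and *Smtn* (0.27 ± 0.10), with adjusted p values of 1.00 by limma. With all 24 mice, the most negative dam effect was -0.10 ± 0.06 (*Smtn*) and the most negative offspring effect was -0.11 ± 0.06 (*Tagln*, brighter probe), with adjusted p values of 0.910 and 0.882 by limma. The share of the variance among the 24 mice that lay between diets had a median of 2.90% over the 10 genes and of 6.29% over all probes well above background. *Acta2* (12.6%) and *Smtn* (10.0%) had the highest shares, and *Synm* (0.48%) the lowest.

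The slide held far more of the variance than the diet. It took a median of 50.5% of the variance over the 10 genes, against 53.5% over all probes well above background, and it did not shift the genes alike. *Myl9* had means of 2.16, 2.25, 2.00 and 2.17 on slides 7 to 10 and of 2.72 and 2.87 on slides 11 and 12. The brighter *Tagln* probe ran the other way, at 2.99, 2.84, 2.87 and 2.92 on slides 7 to 10 and at 2.42 and 2.28 on slides 11 and 12. For *Myl9* the slide took 86.4% of the variance and for this *Tagln* probe 82.0%. The second *Tagln* probe, however, was highest on slides 11 and 12, at 2.47 and 2.55 against 1.90 to 2.06 on the others. As a result the 2 probes of the same transcript correlated at r = -0.69 over 24 mice as measured and at 0.34 once diet and slide were removed. *Acta2* did the same: its brightest probe and A_51_P450957 correlated at -0.57 as measured and at 0.08 afterwards, whereas A_52_P210078 followed the brightest probe in both cases (0.56 and 0.66). The *Synm* probes correlated at 0.55 and, after removal, at 0.89. Every slide held all 4 diets, so these shifts are removed from each diet difference above, while comparisons of mice on different slides carry them.

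**Figure D2:**
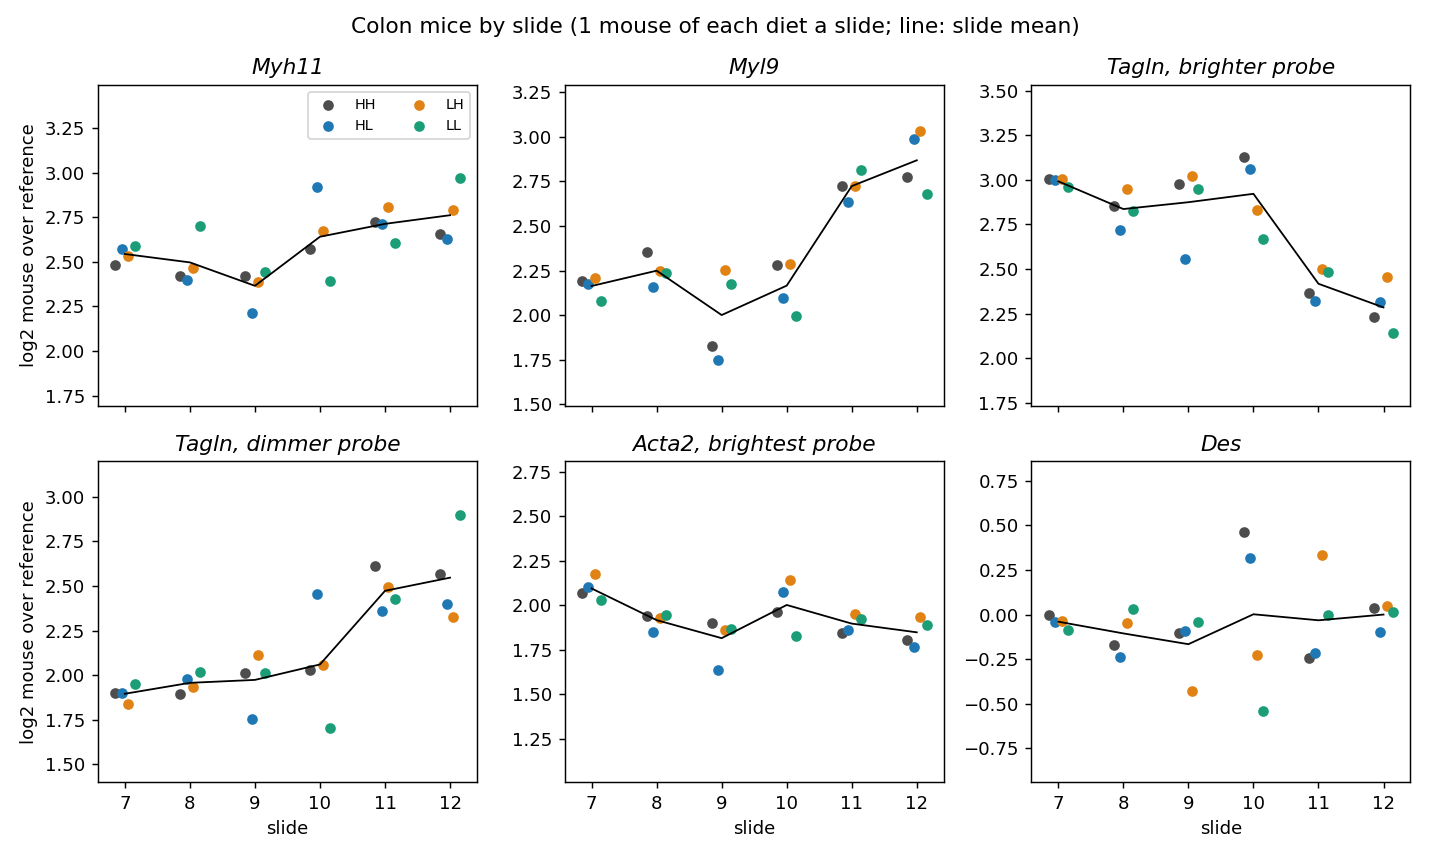
Log2 mouse over reference (y axis, a span of 1.8 log2 units in every panel) by slide (x axis, 7 to 12) for 6 probes in colon, coloured by diet, with lines through the mean of the 4 mice on a slide. On slides 11 and 12 *Myl9* and the dimmer *Tagln* probe are higher and the brighter *Tagln* probe is lower.

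To see how far the muscle content of single samples varied, the 10 genes were averaged per mouse. This member mean ran from 1.23 to 1.78 over the 24 colon mice, a 1.46-fold span, and it had a mean of 1.53 ± 0.13 (SD). Diet means were 1.55 ± 0.12 in HH, 1.51 ± 0.14 in HL, 1.55 ± 0.12 in LH and 1.52 ± 0.15 in LL (SD, n = 6). Mice within a diet were from 1.26 to 1.34-fold apart, and diet held 2.04% of its variance and slide 31.3%. The extremes were on the same slide, the HH mouse of slide 10 being the highest and the LL mouse of slide 10 the lowest of all. The 4 mice of slide 7, in contrast, lay between 1.53 and 1.59.

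All 10 genes were lowest on their slide in the LL mouse of slide 10, which no other mouse showed. The share of all probes that were lowest on the slide in this mouse was not computed, so the count is a description only. Against the mean of the other 3 mice of that slide, its deviations ran from -0.22 for *Myl9* to -0.78 for *Synm*, with a median of -0.38, or 1.30-fold lower. *Des* was at -0.54 (a deviation of -0.73), *Cnn1* at 1.89 (-0.58), *Actg2* at 0.31 (-0.47), *Smtn* at -0.31 (-0.42) and *Myh11* at 2.40 (-0.33). *Actg2*, *Smtn* and *Des* were at their lowest of all 24 mice there, and over 27390 probes this mouse was the lowest in 9.71%. The HL mouse of slide 9 was the lowest of 24 for 4 of the genes and for 13.95% of the probes. The HH mouse of slide 10 was not its mirror image. It was the highest of 24 for *Tagln*, *Cnn1*, *Des* and *Synm*, at deviations from 0.27 to 0.77 from the mean of the other 3 mice of the slide. In contrast, *Myh11* (-0.09), *Acta2* (-0.05) and *Lmod1* (-0.11) lay slightly below that mean. The mean includes the LL mouse, and deviations of slide 10 mice without it were not computed. The remaining 22 mice had median deviations between -0.14 and 0.15.

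Lymphoid genes were high in the same LL mouse, 3 of the 5 markers lying above all other mice. The B cell surface gene *Ms4a1* was at 4.22 there against -2.21 to 0.15 in the other mice, *Cd79a*, part of the B cell receptor, at 1.58 against 0.01 to 0.34, and the T cell receptor gene *Cd3d* at 2.36 against -0.07 to 0.76. *Cd3e* was at -0.12, within the range of the others. The mean of 20 epithelial markers was 0.05 in this mouse and 0.28 to 0.65 in the others, and the mean of 11 nerve and glia markers was 1.12, with 1.20 as the lowest in the others. Striated muscle markers did not move with it, at -3.06 against -3.23 to -2.97. The endothelial mean was highest there, at -0.65 against -1.24 to -0.68. Muscle, epithelial and nerve means were thus lowest in the sample whose lymphoid and endothelial means were highest, and the part of the lymphoid signal in the muscle values was not tested. Without this mouse 0 of 84 diet differences were called and 9 had an unadjusted p under 0.05. Of 14 probes these were 4 in LL minus LH, where 6.75% of all probes passed that limit, 3 in LH minus HL (8.98% of all probes), 1 in LH minus HH (9.07%) and 1 in LL minus HL (2.36%). There were 0 in HL minus HH (3.62%) and in LL minus HH (3.41%). The largest was then 0.25 (*Acta2* A_52_P210078, LL minus HL) and the lowest adjusted p 0.358.

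**Figure D3:**
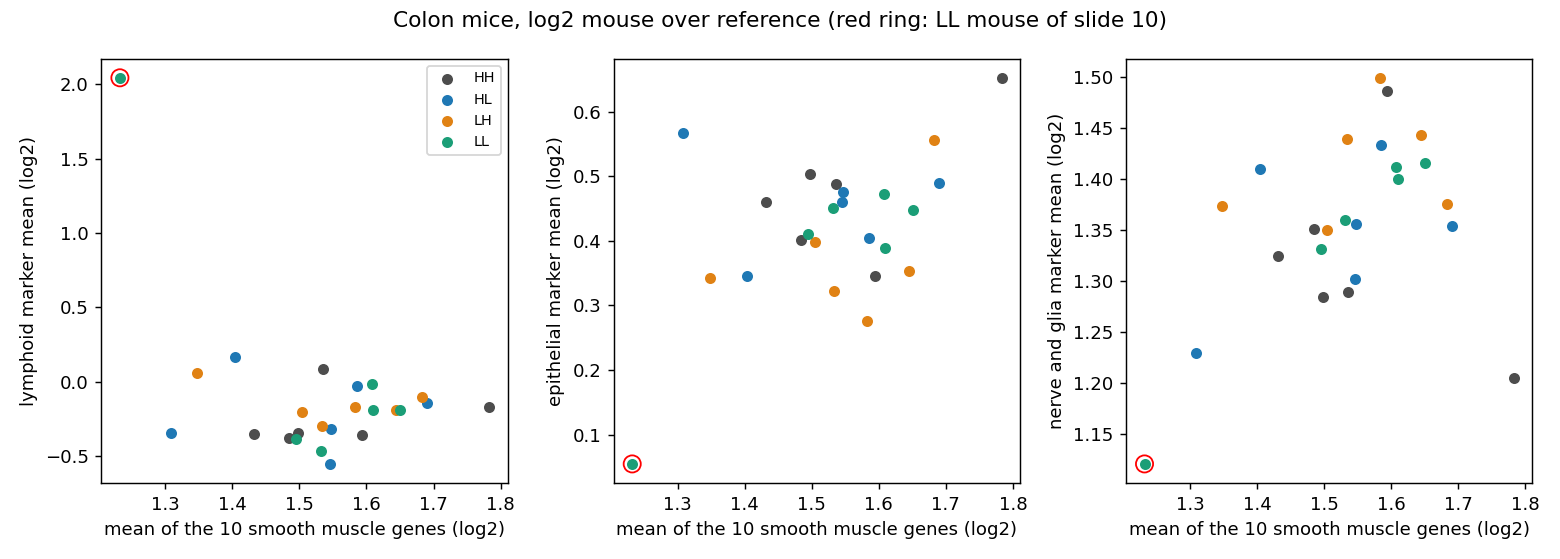
Mean of the 10 smooth muscle genes in each colon mouse (x axis) against the mean of the lymphoid, epithelial and nerve and glia markers (y axes), all as log2 mouse over reference. The ringed LL mouse of slide 10 has the lowest muscle, epithelial and nerve means and the highest lymphoid mean.

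Whether the 10 genes vary together was described by correlation over mice after removing diet and slide, with *Myh11* as the anchor. Over 24 mice r was 0.74 for *Acta2*, 0.66 for *Lmod1*, 0.58 for *Synm*, 0.54 for *Actg2*, 0.50 for *Des*, 0.42 for *Tagln*, 0.30 for *Cnn1*, 0.29 for *Smtn* and -0.02 for *Myl9*. The median was 0.50, against 0.02 over the 27389 other probes well above background, of which 9.93% exceeded 0.5. Much of this rests on the LL mouse of slide 10. Without it the median was 0.19, and *Acta2* (0.57) and *Lmod1* (0.62) were the ones left above 0.5, where 8.81% of all probes exceeded it. *Smtn* was then at -0.26, *Myl9* at -0.29 and *Cnn1* at -0.12. Without the pair of mice farthest from the median of *Myh11*, *Acta2* was at 0.54 and *Lmod1* at 0.56. These values share arrays, loess fit and signal range, and are a description.

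In the 23 mice the genes did not follow 1 common pattern. *Cnn1* and *Des* correlated at 0.80, *Smtn* and *Actg2* at 0.63, *Des* and *Actg2* at 0.61 and *Synm* and *Des* at 0.62. *Lmod1* went with *Myh11* and had negative values with *Cnn1* (-0.44), *Smtn* (-0.43) and *Actg2* (-0.36). Over the 45 pairs of genes, the median r was 0.42 in 24 mice and 0.19 in 23, with 22 and 8 pairs above 0.5.

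**Figure D4:**
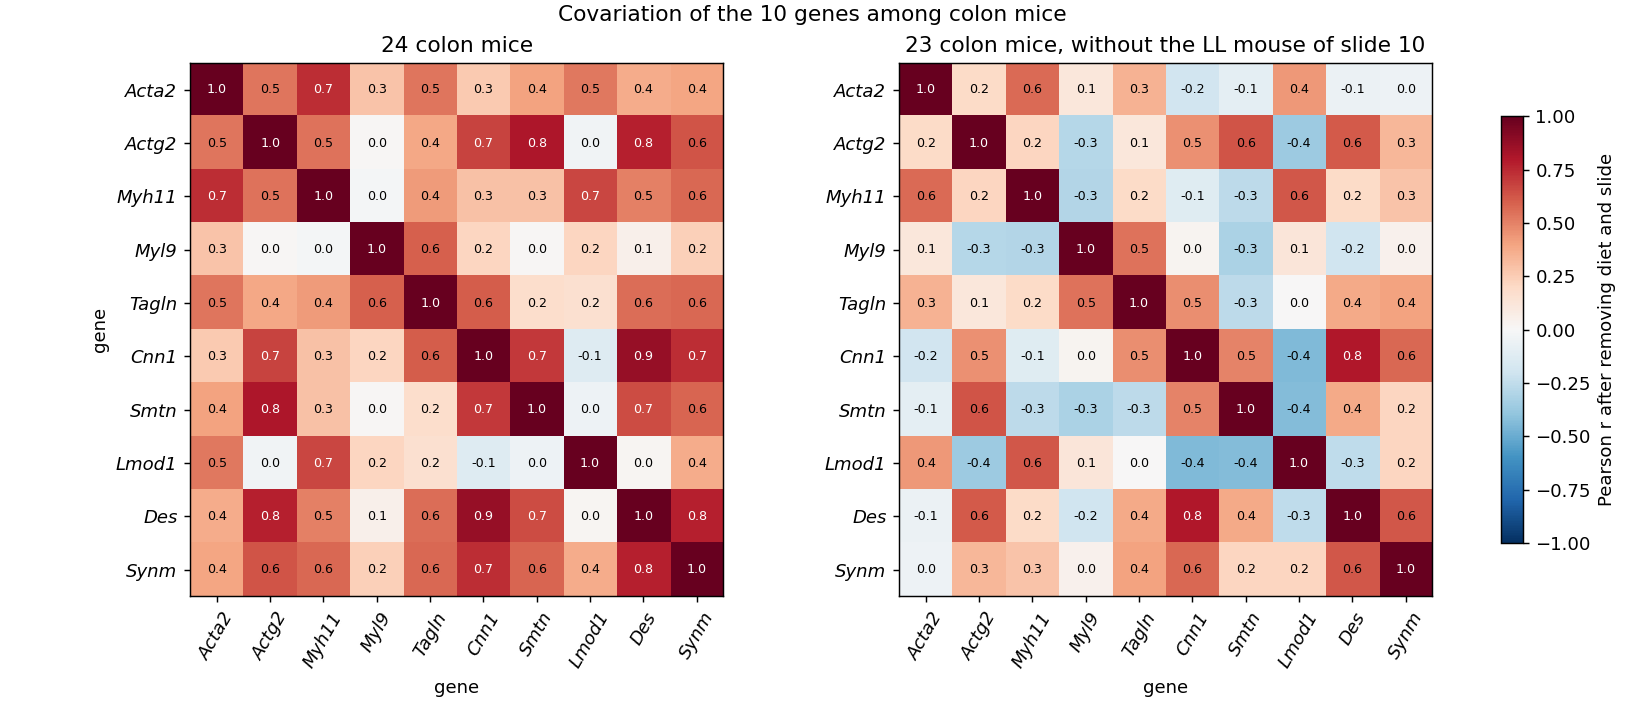
Pearson r between each pair of the 10 genes (rows and columns) over colon mice after removing diet and slide, for 24 mice on the left and for 23 mice without the LL mouse of slide 10 on the right. The median over the 45 pairs is 0.42 on the left and 0.19 on the right.

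The spread of the member mean itself narrowed without this mouse, its residual SD being 0.13 in 24 mice and 0.08 in 23. Among 14844 other genes well above background, the residuals most like the member mean in 24 mice were those of *Neurl1a* (r = 0.88), *Copg1* (0.87), *Sync* (0.87), *Wscd2* (0.86) and *Slc6a17* (0.86), and the least like were *Evl* (-0.86), *Sh3bgrl3* (-0.85), *Siglecg* (-0.85), *Cd209b* (-0.85) and *Snx5* (-0.85). All 5 of the latter were higher in the LL mouse of slide 10 than in any other mouse. Of the 10 named genes only *Sync*, syncoilin, which encodes an intermediate filament protein of muscle, was among the 5 most like genes again in 23 mice, at r = 0.80. *Aspn* (0.82) and *Tenm2* (0.81), named after this second ranking was seen, came before it.

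A list of 60 further genes of the contractile pathway gave the same picture for diet. It covers actin crosslinking, myosin kinase and phosphatase, calcium, potassium and cyclic GMP signalling, adhesion plaques, LIM and PDZ proteins and transcription. In colon 0 of 60 were called in any of the 6 pairs or 3 contrasts. The lowest p values in the dam contrast were those of *Ppp1r12b*, a regulatory subunit of myosin phosphatase (0.14 ± 0.05), *Mrtfa*, a coactivator of serum response factor (0.13 ± 0.05), and *Srf* itself (0.09 ± 0.04), all with an adjusted p of 0.899 by limma. In the offspring contrast they were those of *Srf* (-0.10 ± 0.04), *Kcnma1*, the large-conductance calcium-activated potassium channel (0.12 ± 0.05), and *Pln*, phospholamban (-0.16 ± 0.07), with an adjusted p of 0.882. After removing diet and slide, the mean of the list correlated with the member mean at 0.88 over 24 mice and at 0.66 without the LL mouse of slide 10. As measured, the correlation over 24 mice was 0.57. *Hspb7*, a small heat shock protein of muscle, was the most like single gene of the list (0.84, and 0.70 without that mouse), and *Mef2c*, a transcription factor of muscle that B cells also express, was the least like (-0.73). Without that mouse no gene of the list lay below -0.5.

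Other cell types were followed beside the muscle genes, by correlation over colon mice after removing diet and slide. The member mean correlated at 0.65 with *Ano1*, a marker of interstitial cells of Cajal, the pacemaker cells of the muscle layer, and at 0.51 without the LL mouse of slide 10. For epithelium the values were 0.75 and 0.34, for nerve and glia 0.51 and 0.01, for fibroblasts 0.36 and 0.14, for endothelium -0.54 and -0.09, and for lymphoid genes -0.72 and 0.07. The relations to lymphoid, endothelial and nerve genes over 24 mice thus rest on that mouse. A list of hepatic stellate cell genes gave 0.50 and 0.34, adipocyte genes -0.35 and -0.28, acinar pancreas genes 0.25 and 0.25, striated muscle genes 0.09 and 0.32, and hepatocyte genes 0.07 and 0.07. The stellate list does not single out stellate cells in colon. Its *Lrat* and *Reln* were called lower in colon than in liver, but *Hhip* was called higher (1.42 ± 0.06, SE) and *Ngfr* was not called (0.02 ± 0.07). As measured, with diet and slide left in, the values over 24 mice were -0.29 for *Ano1*, 0.51 for epithelium and -0.46 for lymphoid genes. The sign for *Ano1* thus depended on removing diet and slide. Lists were not uniform inside. Over 24 mice the epithelial genes ran from *Agr2* (0.72) to *Spink4* (-0.32), both of goblet cells, and the striated muscle genes from *Actc1*, cardiac actin (0.84), to *Tnni3*, cardiac troponin I (-0.41). The fibroblast genes ran from *Pdgfra* (0.58) to *Dcn* (-0.13), the endothelial genes from *Tek* (-0.12) to *Cdh5* (-0.65), and the lymphoid genes from *Cd3e* (-0.49) to *Cd3d* (-0.76). For fat they ran from *Lep* (0.09) to *Cfd* (-0.44), for pancreas from *Cela1* (0.41) to *Amy2a5* (-0.02), for hepatocytes from *Apob* (0.24) to *Apoa1* (-0.18), and for the stellate list from *Hhip* (0.56) to *Reln* (0.02). Without the LL mouse of slide 10 no gene of these lists lay below -0.5. The highest was then *Agr2* for epithelium (0.54), *Actc1* for striated muscle (0.62), *Col3a1* for fibroblasts (0.19) and *Hhip* for the stellate list (0.44).

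Liver served as the tissue beside it, and the 10 genes separated from colon completely. All 14 member probes were called higher in colon, where 30.1% of all probes were called and 15.6% were called higher. For each of the 14 probes the lowest colon mouse lay above the highest liver mouse, as for 12.1% of all probes. *Cnn1* was the most different, at 2.27 ± 0.21 in colon and -4.54 ± 0.20 in liver (SD, n = 24 and 23), which gave a difference of 6.80 ± 0.08 (SE) and 112-fold (adjusted p = 5.94e-47 by limma). *Myl9* differed by 5.85 ± 0.11, *Myh11* by 5.43 ± 0.09, *Synm* by 4.78 ± 0.11, *Tagln* by 3.98 ± 0.13, *Des* by 3.62 ± 0.08, *Lmod1* by 3.60 ± 0.09 and *Actg2* by 2.87 ± 0.06. *Smtn* had the smallest difference, 1.80 ± 0.07 or 3.48-fold. Probes of the same gene gave unequal sizes: *Acta2* differed by 4.28 ± 0.06, 2.03 ± 0.09 and 6.16 ± 0.12 on its 3 probes. The last of these was well above background on 16 of 24 liver arrays, so its liver level is partly a bound. All other member probes were well above background on every array, and none was saturated.

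**Figure D5:**
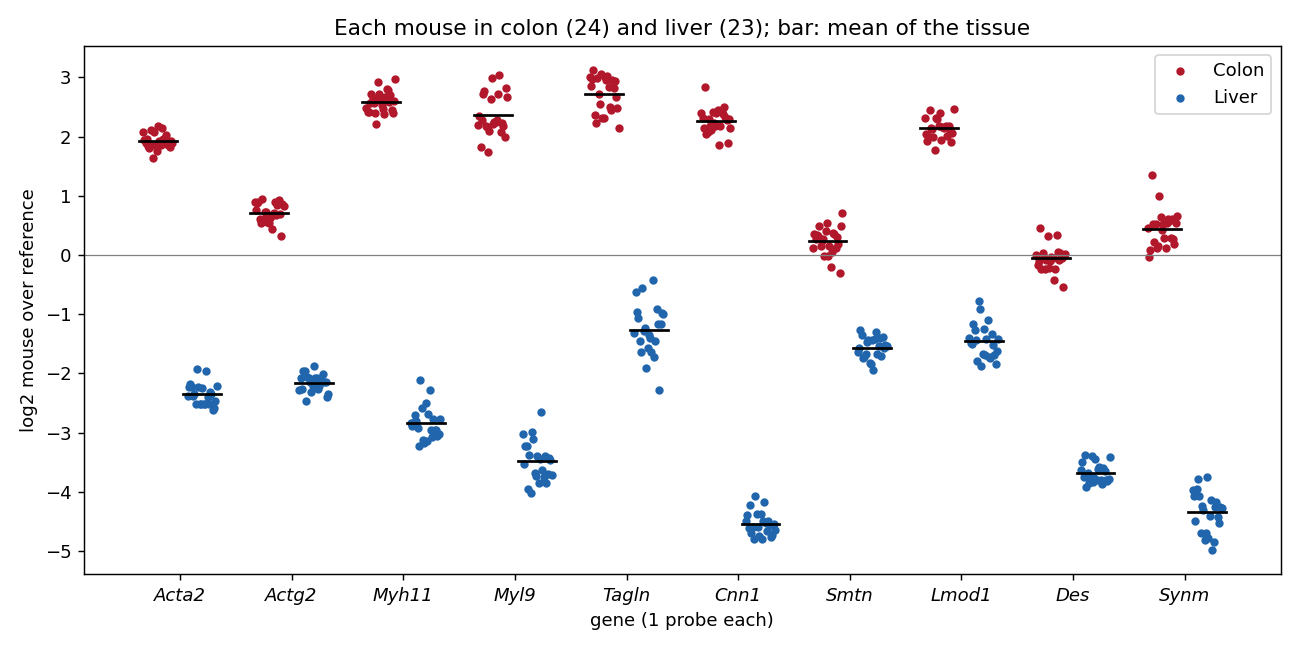
Log2 mouse over reference (y axis) of the 10 genes (x axis, 1 probe each) in each of 24 colon and 23 liver mice, with bars at the tissue means. The tissues do not overlap for any gene, and the gap is widest for *Cnn1* and narrowest for *Smtn*. Levels of different genes are not comparable on this axis.

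The wider pathway was less uniform between tissues. Of 59 of its genes that could be tested in both tissues, 36 were called higher in colon and 6 lower. Over all probes 30.1% were called in either direction and 15.6% were called higher in colon. By role these were 9 higher and 1 lower of 12 thin filament and crosslinking genes, 4 and 0 of 9 for myosin with its kinase and phosphatase, 7 and 0 of 9 for calcium, potassium and cyclic GMP signalling, 4 and 2 of 10 for dense plaques and adhesion, 6 and 2 of 11 for LIM, PDZ and small heat shock proteins, and 6 and 1 of 8 for transcription. The largest differences were those of *Pdlim3*, a PDZ and LIM protein of the actin cytoskeleton (4.94 ± 0.09), *Fhl1*, a LIM domain protein of muscle (4.51 ± 0.08), and *Pgm5*, a protein of adhesion plaques (4.50 ± 0.12). Lower in colon were *Cnn3*, the acidic calponin of non-muscle cells (-1.10 ± 0.06), *Sorbs2* (-1.41 ± 0.12) and the small heat shock protein gene *Hspb8* (-1.85 ± 0.10).

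In liver itself, 0 of the 84 diet differences were called, where 0% of all probes were called in each pair, and 2 had an unadjusted p under 0.05. The 0% departs from the paper. At the same limits it reports differentially expressed liver probes in every pair it lists except HL against LL, most of them between HH and LH. The cause of this departure was not tested. An unadjusted p under 0.05 was reached by 15% of all probes in LH minus HH, 6.4% in HL minus HH and 4.87% in LL minus HH. The shares were 4.87% in LL minus HL, 9.58% in LL minus LH and 2.51% in LH minus HL. Both member differences under that limit were of *Synm*. Its HH liver mice were at -3.97, -4.06, -4.49, -3.95 and -3.79, and the lowest, median and highest mice were -4.82, -4.50 and -4.08 in HL, -4.99, -4.60 and -3.75 in LH, and -4.52, -4.27 and -4.18 in LL. HH tended to the high side, but all groups overlapped with it. LH minus HH was -0.41 ± 0.16 (SE, adjusted p = 0.244) and HL minus HH -0.40 ± 0.16 (adjusted p = 0.778 by limma). The other *Synm* probe gave -0.27 ± 0.13 for LH minus HH. In the 6 pairs the confidence intervals were wider than in colon and reached 1.69-fold. In the 3 feeding period contrasts of liver 0 of 14 were called as well, where 0.00729% of all probes were called in the interaction and 0% in the others. The largest of these differences was the interaction of *Synm*, at 0.57 or 1.48-fold (adjusted p = 0.255 by limma). Confidence intervals in the interaction reached 2.06-fold.

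*Acta2* (brightest probe) had means of -2.28 ± 0.10 in HH (SD, n = 5), -2.34 ± 0.24 in HL, -2.36 ± 0.22 in LH and -2.42 ± 0.16 in LL (SD, n = 6). *Myh11* had -2.81 ± 0.07, -2.86 ± 0.44, -2.77 ± 0.34 and -2.92 ± 0.12 in the same order. HL and LH spread more than HH and LL for both genes, a difference in spread that was not tested.

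Over all mice of a tissue, the span from lowest to highest was wider in liver for 5 of the 10 genes and wider in colon for the other 5. *Tagln* spanned 3.62-fold over 23 liver mice and 1.98-fold over 24 colon mice, *Myh11* 2.18-fold and 1.69-fold, and *Lmod1* 2.15-fold and 1.63-fold. In contrast, *Des* spanned 1.44-fold in liver and 2.01-fold in colon, and *Cnn1* 1.66-fold and 1.97-fold. The member mean ran from -3.05 to -2.38 in liver, a 1.58-fold span. The LH mouse of slide 4 was highest, with *Tagln* at -0.42 and *Myl9* at -2.65. Whether the dam and offspring effects differed between the tissues was tested directly as the difference of the 2 contrasts. In both, 0 of 14 member probes were called, where 0% of all probes were called, and the lowest adjusted p was 0.848 by limma.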

How the data were processed

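Liver RNA of 23 mice and colon RNA of 24 mice was hybridised on 48 Agilent 2-colour arrays, mouse RNA in Cy3 and the common reference in Cy5. The authors deposited the scanner output with spot intensity per channel, and a table of normalised log2 ratios of reference over mouse that they made with limma in R 3.0.2. The intensities were reanalysed here with limma 3.58.1 in R 4.3.3. Local backgrounds above 5 times the array median were set to that median, background was corrected with normexp (offset 50), and each array was normalised by loess with control spots at weight 0. Spots marked as outliers were left out, spots of a probe were averaged, and the 2 arrays of 1 HH liver animal were averaged. Values are log2 mouse over reference. Within a tissue, diet and slide entered 1 linear model with empirical Bayes variances, so slide was a fixed block. Colon and liver were compared in a model of the 8 tissue and diet groups with slide as a random block (correlation 0.202). The paper describes taking both tissues from the offspring, so colon and liver samples may share animals. The labels do not tie them to each other, and the animal was not a block. A probe was called at a fold change over 1.5 with a Benjamini-Hochberg FDR under 0.05 over all probes tested. Well above background in colon means on at least 18 of 24 arrays. P-values are two-sided and measure the spread between mice, and mice of a litter cannot be identified from the labels. The number of arrays limits the precision.

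The rule for named genes took all 10 members, the wider pathway genes with the 3 lowest p values in each feeding period contrast or the 3 largest differences in each direction between tissues, the 5 genes most and least like the member mean, and the most and least like gene of each marker list, which for nerve and glia are not reported here. The members, gene lists and background repair were chosen with earlier results of these data known. The fit was tested on simulated data with known differences. Alternatives were the slide block, background correction, normalisation, the deposited log2 table, Cy3 alone, array weights, a filter on dim probes, the fold limit, mice with *Xist* signal, the repeated animal, the probe of a gene and each mouse left out. Correlations between member pairs, lists and like genes without the LL colon mouse of slide 10 were added after seeing the data.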

Additional observations from a re-analysis of the deposited data

Results flagged for a closer look

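Each diet group of 4 or more mice was checked for a lowest or highest mouse far from the others, for each member probe and for the member mean. Of 120 such checks 9 gave a mouse apart, where chance gives about 1 in 20. In colon, the LL mouse of slide 10 was apart for *Des*, at -0.54, and for the member mean, at 1.23, and the HL mouse of the same slide was apart on the high side for *Des*, at 0.32. In liver, the LH mouse of slide 4 was high for *Myl9*, at -2.65, and for *Tagln*, at -0.42, the HL mouse of slide 4 was high for *Des*, at -3.40, and the LL mouse of slide 3 was low for *Tagln*, at -2.27. The *Acta2* probe A_51_P450957 was low in the HH mouse of slide 5, at -3.88, and in the LL mouse of the same slide, at -4.04. No cause of these values was tested.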

How the results depend on the processing

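No paired analysis was possible because the labels give no replicate numbers to pair mice by. Mice were matched by slide instead, which held 1 mouse of each diet and was the block within each tissue. The counts of called member probes were 0 in the diet pairs and feeding periods of both tissues and in the tissue-by-diet contrasts, and 14 between the tissues, under every alternative and with each mouse left out. Without the slide block 0 of the 84 colon differences had an unadjusted p under 0.05, against 3 with it, and with a mouse left out 1 to 9 had, the highest being without the LL mouse of slide 10. Without the mice with *Xist* signal 4 of the 84 had. In the colon feeding period contrasts 3 member differences then passed that limit by limma, against 0 with all mice. The share of all probes without those mice was not computed. The residual SD of the member mean was 0.0780 to 0.132 with a mouse left out, the lowest again without that mouse, and 0.19 with median centring or with Cy3 alone. The median correlation of the members with *Myh11* was 0.190 to 0.596 with a mouse left out, lowest without that mouse, and 0.765 from Cy3 alone. Differences between tissues depended on the processing in size: over the alternatives *Acta2* gave 4.21 to 5.85 on its brightest probe and 5.82 to 8.02 on A_52_P210078. The causes were not tested. Tissue cannot be told apart from slide, and litters are not given.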
